A study of Rattus norvegicus with 13 samples.

Results

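Gene expression in the hypothalamus was compared between male Sprague-Dawley rats fed a high-fat flaxseed oil diet and rats fed a low-fat soybean oil diet. The comparison uses 8 of the 13 arrays of the series, chosen by their titles: 4 of the flaxseed diet and 4 of the low-fat diet. The flaxseed diet supplied 35% of energy from flaxseed oil, which is rich in alpha-linolenic acid, an omega-3 fatty acid. The low-fat diet supplied 16% of energy from soybean oil. The remaining 5 arrays are of a high-fat safflower oil diet, also at 35% of energy and rich in linoleic acid, an omega-6 fatty acid. Rats of all 3 diets arrived at 6 to 7 weeks of age, were allotted to a diet at random, had free access to it for 2 months, and reached 14 to 15 weeks of age. The flaxseed and low-fat diets differ in the amount of fat and in the kind of oil together, and these cannot be told apart. Nothing in the labels says whether an array holds RNA of a single rat, so the p-values measure the spread between these arrays, which may be technical.

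The hypothalamus senses nutrients and hormones and sets food intake. In its arcuate nucleus, neurons that make neuropeptide Y and agouti-related peptide drive feeding, and neurons that make pro-opiomelanocortin and CART restrain it. Alpha-linolenic acid is the dietary parent of the long-chain omega-3 fatty acids of nerve membranes, and the desaturases and elongases carry out that conversion. Fatty acids also serve as ligands of PPAR receptors, which drive genes of fatty acid oxidation in the liver.

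Of the 70580 rows of the deposited table, 23446 carry exactly 1 gene symbol and name 22093 genes, each taken at its brightest row. Of these, 16006 genes had a mean log2 signal of at least 6.58, the median over all transcript clusters, and were tested. The standard error of a log2 change was 0.0817 in the median gene, and its 95% interval reached 0.174 to either side. Peptides that mark the labelled tissue were bright. On the 8 arrays Pmch, melanin-concentrating hormone, read 11.17 to 12.02 and Hcrt, the orexin precursor, 8.49 to 9.90 on the deposited log2 scale. Cga, of the pituitary marker list, read 9.52 to 11.05. How cleanly the tissue was dissected was not tested.

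No gene passed the test: 0 of 16006 genes (0%) had an adjusted p under 0.05 in limma, and the smallest adjusted p was 0.205, shared by many genes and led by Taf9b. The call depends on how arrays are weighted. Array weights set low-fat replicate 3 to 0.24 and flaxseed replicate 2 to 3.80. With them 2505 genes were higher and 2215 lower at an adjusted p under 0.05 in limma. Of the 114 genes named by rule 79 passed, against 4720 of all 16006 genes. Many of the 114 were chosen for a small p in these same data, so their share lends no separate support. At an unadjusted p under 0.05 there were 2062 genes higher with flaxseed (12.9%) and 1160 lower (7.25%). The changes were small, with 94.1% of genes within 0.25 of 0 on the log2 scale. All 4 flaxseed arrays lay above all 4 low-fat arrays in 942 genes (5.89%) and below them in 392 (2.45%).

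The balance of higher and lower genes depended on how the arrays were scaled. With the deposited values 62.3% of genes had a positive change and the median change was 0.046. Quantile normalization over all 70580 rows gave 1398 genes higher (8.73%) and 631 lower (3.94%) at an unadjusted p under 0.05, and the median change was 0.0091. Quantile normalization over the 22093 gene rows alone gave 983 higher (6.14%) and 1505 lower (9.4%), and the median was -0.0028, so that the surplus of higher genes turned into a surplus of lower ones. Groups that did not overlap numbered 608 higher (3.8%) and 274 lower (1.71%) with all-row quantiles, and 389 higher (2.43%) and 651 lower (4.07%) with gene-row quantiles. Median centring of the arrays gave 4704 higher and 91 lower, with a median change of 0.148. Without flaxseed replicate 1 the deposited values gave 1552 higher (9.7%) and 903 lower (5.64%). Each of these settings left 0 genes at an adjusted p under 0.05 in limma.

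The deposited changes followed signal. When the genes tested were cut into 10 groups by mean signal, the median log2 change ran from -0.108 in the dimmest group to 0.140 in the brightest. In the brightest group 494 of 1600 genes were higher at an unadjusted p under 0.05 and 1 was lower, whereas in the dimmest group 29 of 1601 were higher and 421 lower. With gene-row quantiles the medians of the 10 groups ran from -0.037 to 0.015. The arrays differed in the same sense: the interquartile range over genes tested averaged 1.46 ± 0.05 (SD, n = 4) with flaxseed and 1.36 ± 0.03 (SD, n = 4) with the low-fat diet, with an exact two-sided permutation p of 0.0571 and 0.0762 after adjustment over 4 array summaries. The median of 1273 olfactory receptor rows, genes hardly used outside the nose, was 4.83 ± 0.05 against 4.99 ± 0.08, and no flaxseed array reached the lowest low-fat array (exact permutation p = 0.0286, the smallest that 4 against 4 arrays allow, adjusted 0.0571). The median of all rows was 6.60 ± 0.05 against 6.70 ± 0.03 (exact permutation p = 0.0286, adjusted 0.0571), and that of the array's background features 4.66 ± 0.24 against 4.77 ± 0.33 (0.571 for both). Whether this spread of the signals comes from the diets or from the arrays was not tested.

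**Figure D1:**
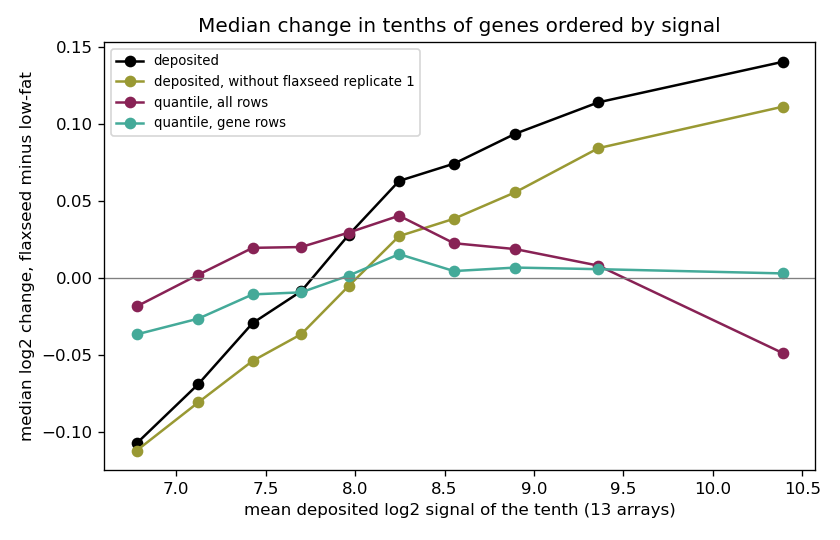
Median log2 change (flaxseed minus low-fat, vertical axis) in 10 groups of tested genes ordered by mean deposited log2 signal over 13 arrays (horizontal axis), for deposited values, deposited values without flaxseed replicate 1, and quantile normalization over all rows or over gene rows. The deposited curve climbs from -0.108 to 0.140, and the gene-row curve stays between -0.037 and 0.015.

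Single arrays stood apart within both groups. Flaxseed replicate 1 was the array farthest from its group's median in 45.7% of genes, and low-fat replicate 3 in 44.6%. A set of 2373 rows without a symbol, all those that exceeded a log2 signal of 11 on some array, differed between arrays of both groups: their median was 10.68, 11.11, 12.24 and 11.94 on low-fat replicates 1 to 4 and 11.10, 12.02, 11.97 and 12.23 on flaxseed replicates 1 to 4. These rows enter the all-row quantiles. With them the 99th percentile of the gene rows ranged from 10.77 to 11.81 over the 8 arrays, against 10.86 to 11.19 in the deposited values, so gene-row values stand beside the all-row values of the genes described here.

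The genes named first are the 10 of smallest p in each direction. They were taken from genes whose groups lay apart both as deposited and after all-row quantile normalization. There were 363 such genes higher with flaxseed (2.27%) and 178 lower (1.11%). With gene-row quantiles as a further condition 188 and 167 were left, and 19 of the 20 named genes were among them. Zfp483 was the exception. For each of the 20 the adjusted p was 0.205 in limma with deposited values. Several of them also differed between the safflower arrays and the same low-fat arrays. Those log2 differences were 0.35 for Taf9b, 0.43 for Actr10, 0.39 for Zfp483, -0.55 for Prp2 and -0.33 for Myl2. The adjusted p of these genes in limma ran from 0.0038 to 0.0060. Clxn went the other way in this respect, with a safflower difference of 0.015.

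Taf9b, which encodes a subunit of the general transcription factor TFIID, read 9.24, 9.29, 9.15 and 9.27 on low-fat replicates 1 to 4 and 9.87, 9.48, 9.72 and 9.74 on flaxseed replicates 1 to 4. The lowest flaxseed array was above the highest low-fat array by more than the whole range of the low-fat arrays. The log2 difference was 0.46 (SE 0.083), a 1.38-fold higher level, and 0.36 with all-row quantiles, 0.35 with gene-row quantiles and 0.41 without flaxseed replicate 1. Of 14 TFIID genes tested, Taf9b included, 5 were higher at an unadjusted p under 0.05 and 0 lower. Over all genes the shares were 12.9% and 7.25%. With gene-row quantiles 2 were higher, against 6.14%. The list was chosen with earlier results of these data known, so its counts lend no separate support to Taf9b. The list's median was 0.10 as deposited and 0.07 with gene-row quantiles. Taf7, another TFIID subunit, read 7.40 to 7.50 on low-fat arrays and 7.53 to 7.70 on flaxseed arrays.

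Bex4, a brain-expressed X-linked gene, had the widest difference among the higher genes. It read 7.67, 7.76, 8.13 and 8.38 on the low-fat arrays and 9.05, 8.55, 8.55 and 8.46 on the flaxseed arrays, a log2 difference of 0.67 (SE 0.14). The gap between the groups was narrow, since low-fat replicate 4 came within 0.1 of flaxseed replicate 4. The difference was 0.68 with all-row quantiles, 0.65 with gene-row quantiles and 0.54 without flaxseed replicate 1, the brightest of the 4. Its relatives did not share the size, with Tceal9 next at 0.27, and Bex1 differed by 0.05. Of 10 genes of the Bex and Tceal families tested, Bex4 included, 4 were higher at an unadjusted p under 0.05. Over all genes the share was 12.9%. With gene-row quantiles 3 were higher and 1 lower, against 6.14% and 9.4%, and the median of the list was 0.05.

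Clxn encodes calaxin, a calcium-binding protein of the dynein arms of motile cilia. Its signals were 7.73, 7.79, 8.21 and 8.07 with the low-fat diet and 8.80, 8.51, 8.37 and 8.41 with flaxseed. All flaxseed arrays were above all low-fat arrays, and the log2 difference was 0.57 (SE 0.11), 0.58 with all-row quantiles, 0.55 with gene-row quantiles and 0.48 without flaxseed replicate 1. On the 5 safflower arrays Clxn averaged 7.97 ± 0.11 (SD), close to the low-fat mean of 7.95 ± 0.23. The direct difference of flaxseed from safflower was 0.56 with an adjusted p of 0.245 in limma, so it was not told apart from the spread. In bulk tissue, fewer cells of a type and less RNA per cell cannot be told apart. Of the 23 markers of tanycytes, ependyma and choroid plexus tested, 1 was higher and 1 lower at an unadjusted p under 0.05. Over all genes the shares were 12.9% and 7.25%. The median of the markers was 0.05 as deposited and -0.06 without flaxseed replicate 1. Their part in the Clxn difference was not tested.

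The other higher genes showed smaller differences. Sike1, an inhibitor of the kinases that switch on interferon genes, read 7.75 to 7.88 on low-fat arrays and 8.01 to 8.07 on flaxseed arrays. Thumpd1, an adapter for the acetylation of transfer RNA, read 7.94 to 8.12 against 8.28 to 8.35. Actr10, a dynactin subunit of the dynein motor, read 8.88 to 8.97 against 9.12 to 9.28. In these genes the lowest flaxseed array cleared the highest low-fat array by more than 0.1. Ddx20, an RNA helicase of the complex that assembles splicing particles, read 7.19 to 7.28 against 7.45 to 7.62, and Rps6ka5, a kinase that phosphorylates histone H3 and CREB, 8.12 to 8.35 against 8.46 to 8.60. Zfp472 and Zfp483, zinc finger genes, differed by 0.40 and 0.32. The Zfp483 difference was 0.19 with either quantile normalization, and its groups overlapped with gene-row quantiles.

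**Figure D2:**
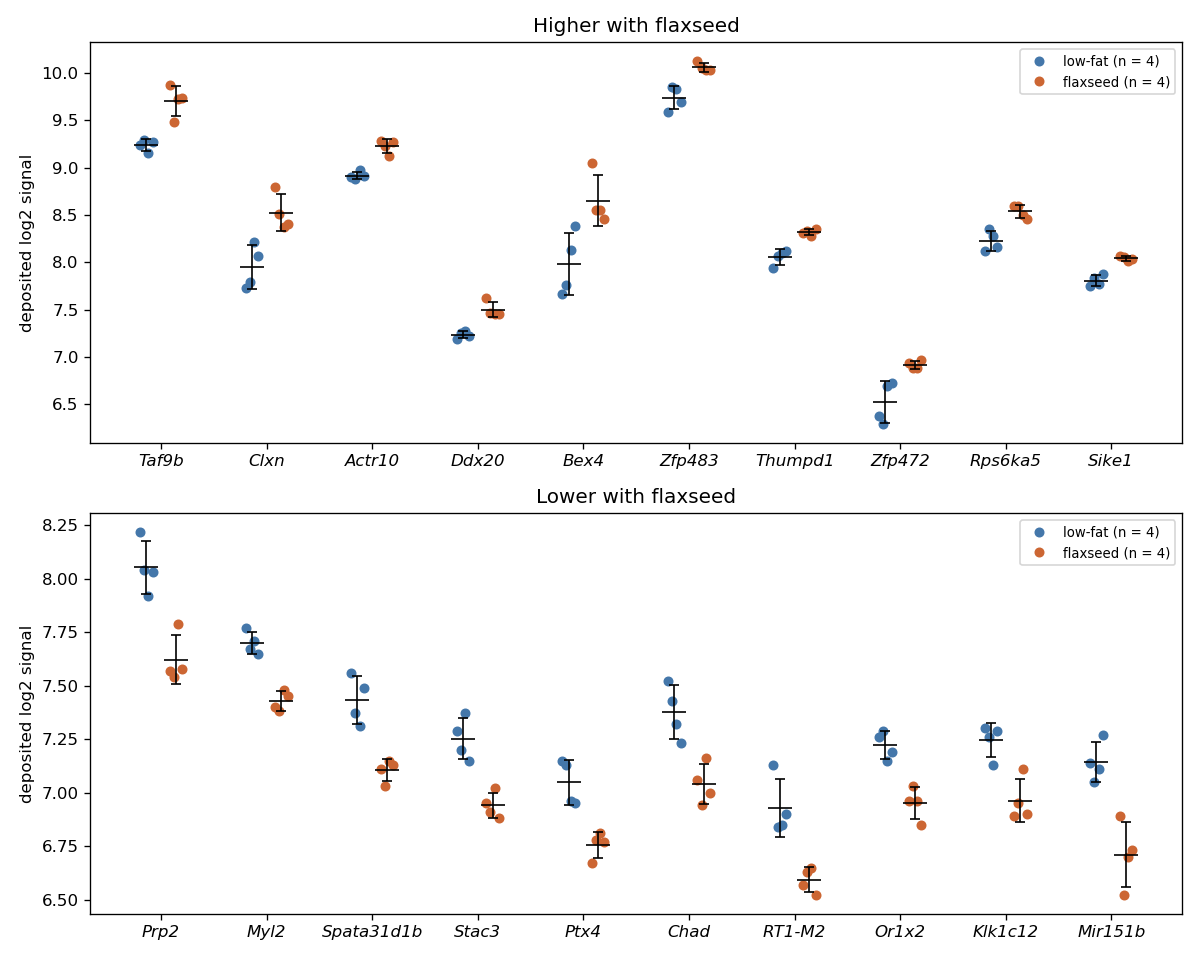
Deposited log2 signal (vertical axes) of the 10 genes named as higher and the 10 named as lower with flaxseed, with a point for each low-fat and flaxseed array, the group mean as a dash and its SD as a bar (n = 4). By the way they were chosen the groups do not overlap, and the lower genes lie between 6.52 and 8.22.

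The genes named as lower were dimmer, and several are known for tissues other than brain. Prp2, listed under this symbol with no further annotation used here, read 8.22, 8.04, 7.92 and 8.03 on the low-fat arrays and 7.57, 7.54, 7.79 and 7.58 on the flaxseed arrays. The highest flaxseed value, from replicate 3, was below the lowest low-fat value. The log2 difference was -0.43 (SE 0.081), a level 0.740 times that of the low-fat diet, and it was -0.44 with all-row and -0.47 with gene-row quantiles. Mir151b, a microRNA gene, read 7.05 to 7.27 against 6.52 to 6.89 and differed by -0.43 (SE 0.095). Stac3, needed for excitation-contraction coupling in skeletal muscle, differed by -0.31, Chad, the cartilage protein chondroadherin, by -0.33, and RT1-M2, a class Ib histocompatibility gene, by -0.34. The differences of Ptx4, a pentraxin, and of Klk1c12, a kallikrein, were -0.29 and -0.28, and Or1x2, an olfactory receptor, had -0.28 and Spata31d1b -0.33. With gene-row quantiles these 9 genes, Prp2 to Spata31d1b, kept log2 differences of -0.47 to -0.23. The mean signals of the 10 named lower genes, Myl2 included, ran from 6.69 to 7.71, and in the dimmest 4 of the 10 signal groups the deposited median ran from -0.108 to -0.0088.

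Genes of protein synthesis had the highest list medians in the deposited values of all 8 arrays. Without flaxseed replicate 1 or without low-fat replicate 3 the list of 7 blood cell genes was highest instead, at 0.52 and 0.31. Ribosomal proteins build the particle that reads messenger RNA, and their genes are among the brightest on the array. Of 44 large-subunit genes tested, 31 were higher at an unadjusted p under 0.05 and 0 lower, with a median change of 0.21, and of 27 small-subunit genes 15 were higher and 0 lower, with a median of 0.22. Over all genes tested those shares were 12.9% and 7.25% and the median 0.046, and in the brightest group of genes the median was 0.140. No gene of either list had an adjusted p under 0.05 in limma.

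Promoters of ribosomal protein genes in mammals start transcription within a run of pyrimidines. The sequences of 3 of these promoters are shown because the genes of both ribosomal lists lean the same way as deposited. In the window from 30 bases before to 30 bases after the start (RefSeq, build GRCr8), CTTTCC or CTTTTC on the sense strand was found in 26 of 61 matched ribosomal protein promoters (42.6%) and in 1331 of 27457 promoters of all genes (4.85%), while on the opposite strand the shares were 3.28% and 4.86%. The 61 are those of the 71 tested genes that matched. The sequences run 5′ to 3′ on the gene's own strand, with either motif in capitals.
Rpl4: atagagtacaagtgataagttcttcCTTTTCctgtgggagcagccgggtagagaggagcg
Rpl23: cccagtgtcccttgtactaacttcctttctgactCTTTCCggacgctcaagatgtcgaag
Rps6: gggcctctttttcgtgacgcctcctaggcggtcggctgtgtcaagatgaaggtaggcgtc
They lie at chr8:73566447-73566506 on the plus strand, chr10:83272155-83272214 on the minus strand and chr5:106420511-106420570 on the minus strand. A match describes letters only. The Rps6 window, with no match, belongs to a gene of the small-subunit list with a difference similar to that of Rpl23, of the large-subunit list. The windows of Rps7 and Rps23, not shown, held no match either.

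Rpl4, a large-subunit protein, read 11.09, 11.06, 11.27 and 11.32 on the low-fat arrays and 11.55, 11.43, 11.43 and 11.49 on the flaxseed arrays. The groups did not overlap, and the log2 difference was 0.29 (SE 0.074, adjusted p = 0.205 in limma). It was -0.04 with all-row quantiles and 0.14 with gene-row quantiles, and with both the groups overlapped. Rpl23, of lower signal, was less affected: it read 7.94, 7.97, 7.99 and 8.23 against 8.31, 8.30, 8.27 and 8.30, and its difference of 0.26 was 0.26 and 0.23 with the all-row and gene-row quantiles. Rps6, a small-subunit protein phosphorylated when growth signals are active, read 8.81 to 9.03 against 9.10 to 9.16, a difference of 0.22 that was 0.14 and 0.13 with these scalings.

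The counts were smaller with other scalings. With gene-row quantiles 6 of 44 large-subunit genes and 4 of 27 small-subunit genes were higher at an unadjusted p under 0.05 and 0 lower, against 6.14% and 9.4% of all genes, and the medians were 0.09 and 0.11 against -0.0028. With all-row quantiles 7 and 5 were higher, against 8.73% of all genes. In the deposited values the median of the large-subunit list was 9.39, 9.44, 9.55 and 9.82 on low-fat replicates 1 to 4 and 9.92, 9.81, 9.80 and 9.74 on flaxseed replicates 1 to 4. Low-fat replicate 4 thus lay within the flaxseed range, and the other low-fat arrays below it. With gene-row quantiles the low-fat arrays ran from 9.49 to 9.93 and the flaxseed arrays from 9.78 to 9.85, so the low-fat spread enclosed the flaxseed arrays.

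Translation factors and proteasome genes also had smaller counts with gene-row quantiles. Of 34 initiation and elongation factor genes 18 were higher and 0 lower at an unadjusted p under 0.05, against 12.9% and 7.25% of all genes, with a median of 0.19. With gene-row quantiles 2 were higher, near the 6.14% of all genes, with a median of 0.06. The list's median on each array did not overlap between the diets as deposited, at 9.29 to 9.44 against 9.49 to 9.63, and with gene-row quantiles the groups nearly touched, at 9.41 to 9.53 against 9.53 to 9.60. Eif3h, a subunit of initiation factor 3, differed by 0.23 as deposited, -0.06 with all-row and 0.08 with gene-row quantiles. Eif2s1, the alpha subunit of initiation factor 2 whose phosphorylation slows translation, differed by 0.28, 0.25 and 0.23.

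The proteasome degrades proteins marked with ubiquitin. Of its 32 genes tested, 17 were higher and 0 lower as deposited, against 12.9% and 7.25% of all genes, and the median was 0.17. All flaxseed arrays lay above all low-fat arrays in 12 of them, against 5.89% of all genes. They did so in 5 with all-row quantiles, against 3.8%, and in 3 with gene-row quantiles, against 2.43%. With gene-row quantiles 7 were higher and 0 lower, against 6.14% and 9.4% of all genes, and the median was 0.06. The list's median on each array was 9.17 to 9.39 against 9.39 to 9.55 as deposited, with low-fat replicate 4 just under the lowest flaxseed array, and with gene-row quantiles low-fat replicate 4 was above every flaxseed array. Psma1, a subunit of the core ring, read 9.17, 9.13, 9.15 and 9.27 on low-fat arrays and 9.60, 9.44, 9.39 and 9.36 on flaxseed arrays. Its groups did not overlap under any of these 3 scalings, with differences of 0.27 (SE 0.071, adjusted p = 0.205 in limma), 0.17 with all-row and 0.16 with gene-row quantiles. Psmc2, an ATPase of the regulatory cap, differed by 0.25, 0.04 and 0.11 in the same order.

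**Figure D3:**
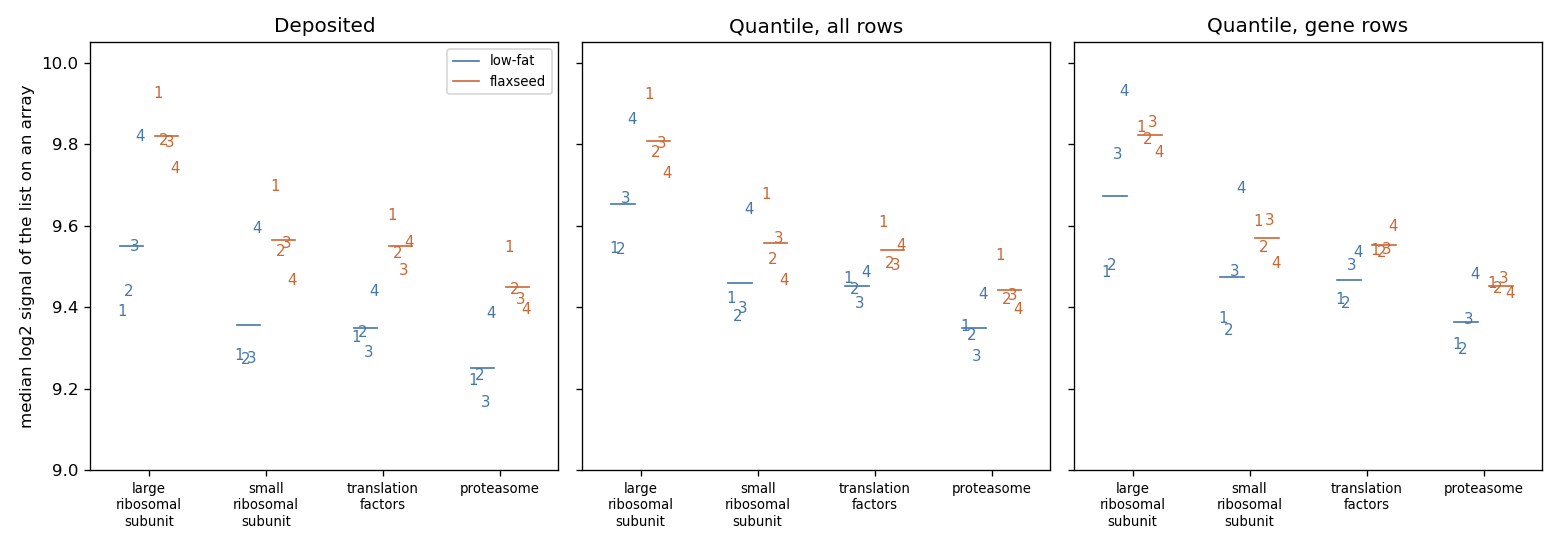
Median log2 signal of a list on each array (vertical axis) for large-subunit and small-subunit ribosomal proteins, translation factors and proteasome subunits, as deposited and after quantile normalization over all rows or over gene rows. Digits are replicate numbers and dashes are group means. In the ribosomal lists low-fat replicate 4 lies within the flaxseed range as deposited, at 9.82 for the large subunit.

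Mitochondrial genes were split. Of 46 mitochondrial ribosomal protein genes 9 were higher and 0 lower as deposited, against 12.9% and 7.25% of all genes, with a median of 0.10. With gene-row quantiles 9 were higher and 2 lower, against 6.14% and 9.4%, with a median of 0.09. This list, of moderate signal, held its median under each scaling. Mrps9 read 7.52 to 7.71 on low-fat arrays and 7.80 to 7.90 on flaxseed arrays, a difference of 0.26 as deposited, 0.30 with all-row and 0.27 with gene-row quantiles, and its groups did not overlap with any of them. Respiratory chain lists of higher signal did not hold: the complex I median went from 0.11 to 0.02 with gene-row quantiles, that of complexes II to IV from 0.12 to 0.02 and that of ATP synthase from 0.12 to 0.001. Of the 34 complex I genes 8 were higher as deposited, against 12.9% of all genes, and 1 with gene-row quantiles, against 6.14%.

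Feeding peptides gave no call. Npy, neuropeptide Y, read 9.50, 9.96, 9.85 and 9.67 on the low-fat arrays and 10.22, 10.19, 9.98 and 10.25 on the flaxseed arrays. Every flaxseed array was above every low-fat array, by as little as 0.02, and the log2 difference was 0.42 (SE 0.15, adjusted p = 0.205 in limma). It was 0.28 with all-row and 0.29 with gene-row quantiles, where the groups overlapped, and 0.40 without flaxseed replicate 1. The 5 safflower arrays averaged 9.56 ± 0.33 (SD), and the difference of flaxseed from safflower was 0.60 with an adjusted p of 0.245 in limma.

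Agrp, made by the same neurons as Npy, read 7.24, 7.26, 7.09 and 7.23 against 7.56, 7.17, 7.28 and 7.07. These groups overlapped, and the difference of 0.06 had a 95% interval of -0.15 to 0.27. Pomc, the precursor of the satiety peptide alpha-MSH, read 8.13, 8.07, 8.13 and 8.29 against 9.40, 8.45, 8.22 and 8.23. Its difference of 0.42 (adjusted p = 0.268 in limma) was 0.15 without flaxseed replicate 1, the brightest array. Cartpt, the CART precursor, read 10.49 to 10.66 against 10.72 to 11.32, where flaxseed replicate 1 was again the highest, and its difference of 0.31 was 0.17 without that array. Hcrt read 9.42, 9.90, 9.38 and 9.65 against 8.49, 9.54, 9.35 and 9.50, with flaxseed replicate 1 the lowest, and its difference of -0.37 was -0.13 without it.

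Flaxseed replicate 1 therefore differed from its group in Pomc, Cartpt and Hcrt at once, though not in Npy, and it differed in other markers. The median of 22 oligodendrocyte and myelin genes was 9.10 on that array and 9.51 to 9.65 on the other flaxseed arrays, and the median of 7 blood cell genes was 7.61 against 9.06 to 10.26. Of 26 hypothalamic region markers tested, 10 were higher on it than on all 7 other arrays and 4 were lower. Among them, chosen after their values were seen, Hdc, the histamine-forming enzyme, read 9.99 against 7.83 to 8.15 on the other flaxseed arrays, and Fezf1, a transcription factor of the ventromedial nucleus, 10.25 against 8.54 to 8.87. Tbx3 and Isl1, transcription factors of arcuate neurons, read 8.80 against 7.91 to 8.11 and 8.84 against 8.01 to 8.16. Of the 4 lower markers, Sim1 read 7.47 against 7.78 to 7.88 and Vip 6.42 against 6.87 to 7.04. Nr5a1, of the same list, was not above all other arrays, at 8.39 against 8.43 on low-fat replicate 1. The part of these markers in the peptide values was not tested.

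Of 29 feeding peptide genes tested, 3 were higher and 1 lower at an unadjusted p under 0.05, against 12.9% and 7.25% of all genes, and the median was 0.06, or 0.01 without flaxseed replicate 1. The balance turned with either quantile normalization, to 1 higher and 3 lower, with a gene-row median of -0.01. The shares of all genes were 8.73% and 3.94% with all-row quantiles and 6.14% and 9.4% with gene-row quantiles. Without low-fat replicate 3 there were 3 higher and 5 lower, against 1918 and 2266 of all 16006 genes. The 1 lower gene as deposited, Gcg, the precursor of glucagon-like peptides, read 6.87 to 7.04 against 6.68 to 6.81.

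Genes of fatty acid handling, the pathway the diets differ in, showed small differences. Fads1 and Fads2, the delta-5 and delta-6 desaturases that act on alpha-linolenic acid, differed by 0.18 (95% interval -0.03 to 0.39) and 0.16 (-0.08 to 0.39). On the arrays Fads1 read 10.85, 11.10, 10.55 and 10.85 against 11.22, 10.94, 10.98 and 10.92, and the groups overlapped. With all-row quantiles the differences turned to -0.14 and -0.06, and with gene-row quantiles they were 0.02 and 0.03. Elovl5, an elongase of polyunsaturated fatty acids, went from 0.10 to -0.17 and -0.06, and Scd, the stearoyl-CoA desaturase, from 0.07 to -0.01 and -0.02. The median over 16 desaturase and elongase genes was 0.10 as deposited and 0.0003 with gene-row quantiles, and 2 of them were higher and 0 lower at an unadjusted p under 0.05, near the 12.9% of all genes that were higher. With either quantile normalization 0 were higher.

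Fatty acid oxidation and PPAR target genes were higher about as often as all genes as deposited. Of 43 tested, 6 were higher and 1 lower as deposited, against 12.9% and 7.25% of all genes, and 4 were higher and 0 lower with gene-row quantiles, against 6.14% and 9.4%. The medians were 0.08 and 0.04, and the median was 0.03 without flaxseed replicate 1 and -0.01 with all-row quantiles and without that array, where 19 of 43 were positive. Etfdh, which hands electrons from acyl-CoA dehydrogenases on to ubiquinone, read 7.98, 7.92, 8.12 and 8.12 against 8.27, 8.25, 8.18 and 8.27. The groups did not overlap as deposited or with all-row quantiles, and the difference was 0.21 under both and 0.18 with gene-row quantiles. Hadhb, of the mitochondrial trifunctional protein, differed by 0.24, 0.19 and 0.17 in that order, and Abcd3, a peroxisomal transporter, by 0.26, 0.16 and 0.15. Ppara itself differed by -0.03 and Cpt1a, the carnitine palmitoyltransferase of the outer mitochondrial membrane, by 0.09, with overlapping groups.

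Eicosanoid genes were dim, with a median log2 signal of 7.48. Of 23 eicosanoid enzymes and receptors tested, 2 were higher and 2 lower at an unadjusted p under 0.05. Over all genes the shares were 12.9% and 7.25%. With gene-row quantiles 1 was higher and 3 lower, against 6.14% and 9.4%. Without low-fat replicate 3 there were 1 higher and 8 lower, against 1918 and 2266 of all 16006 genes. Without flaxseed replicate 1 the change was positive in 4 of 23, against 53.5% of all genes. Genes of similar signal leaned the same way in that setting. The list's median change was -0.091, and that of the signal group of mean 7.43 was -0.054. The 2 lower as deposited were Ptger1, a prostaglandin E2 receptor, at 8.12 to 8.30 against 7.93 to 8.05, and Ptgir, the prostacyclin receptor, at 7.65 to 7.92 against 7.44 to 7.64. Their groups did not overlap with any of the 3 scalings, and the differences were -0.20 and -0.21 as deposited and -0.25 and -0.22 with gene-row quantiles. Apart from the mediator genes, 15 genes of fatty acid synthesis under SREBP-1c were tested. As deposited 2 were higher and 1 lower, against 12.9% and 7.25% of all genes, with a median of 0.02. Mlxipl, the carbohydrate response factor ChREBP, read 7.74 to 7.82 against 7.48 to 7.71. Gpam, which starts glycerolipid synthesis, read 8.83 to 8.93 against 9.01 to 9.28.

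Stress and immune lists were mixed. Over all genes 12.9% were higher and 7.25% lower as deposited, and 6.14% and 9.4% with gene-row quantiles. Of 36 antioxidant genes 11 were higher and 0 lower as deposited and 4 were higher with gene-row quantiles, and the median went from 0.14 to 0.02. Prdx3, the mitochondrial peroxiredoxin, read 8.47, 8.45, 8.45 and 8.41 against 8.75, 8.64, 8.64 and 8.67, a difference of 0.23 that was 0.17 with gene-row quantiles. Of 27 inflammatory genes 1 was higher and 4 lower, with a median of -0.02 that was 0.03 with all-row and 0.01 with gene-row quantiles. Without low-fat replicate 3 there were 8 lower, against 2266 of all 16006 genes. Of 23 interferon and antigen presentation genes 2 were higher and 2 lower, with a median of 0.002 that was -0.07 without flaxseed replicate 1. Ifi27, an interferon-induced gene, read 9.67, 9.58, 9.71 and 9.18 against 10.15, 10.22, 9.95 and 9.73, a difference of 0.48 (SE 0.15).

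Skeletal muscle genes gave the lowest median of the 43 lists as deposited, and 1 low-fat array set its size. Of 30 muscle genes tested 15 were lower and 0 higher at an unadjusted p under 0.05, against 7.25% and 12.9% of all genes. The median change was -0.57. The list's median was 7.66, 7.47, 9.11 and 7.40 on low-fat replicates 1 to 4 and 7.23, 7.20, 7.35 and 7.16 on flaxseed replicates 1 to 4. Low-fat replicate 3 stood above all others: Acta1, skeletal actin, read 11.82 there, 8.80 to 9.05 on the other low-fat arrays and 8.59 to 8.95 on the flaxseed arrays. Without that array the median change of the list was -0.21. In that setting 17 genes of the list were lower at an unadjusted p under 0.05, against 2266 of all 16006 genes.

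The muscle genes outside that array had a difference of another size. Myl2, the regulatory myosin light chain of slow and cardiac muscle, read 7.77, 7.67, 7.71 and 7.65 against 7.40, 7.38, 7.48 and 7.45. Low-fat replicate 3 was not raised in this gene, and the log2 difference was -0.27 with and without it (SE 0.052, adjusted p = 0.205 in limma). Tcap, a titin-binding protein of the muscle Z-disc, read 7.66, 7.38, 8.01 and 7.42 against 7.03, 7.16, 7.31 and 6.93, and its difference of -0.51 was -0.38 without low-fat replicate 3. For Acta1 the difference of -0.85 was -0.12 without it. Whether muscle was taken with that sample was not tested.

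**Figure D4:**
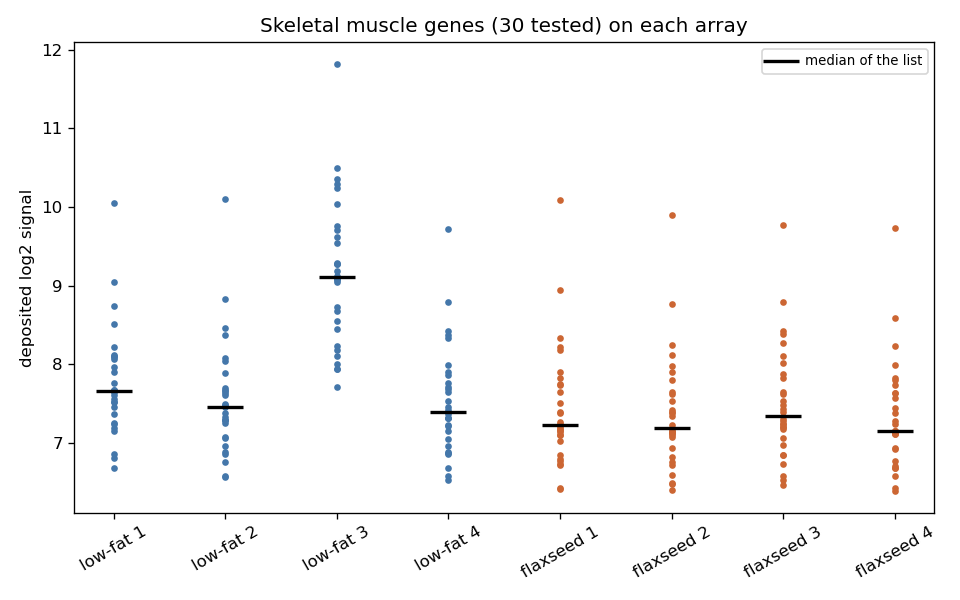
Deposited log2 signal (vertical axis) of the 30 skeletal muscle genes tested, as points on each of the 8 arrays (horizontal axis), with the list's median as a dash. The median is 9.11 on low-fat replicate 3 and 7.16 to 7.66 on the other arrays.

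Cell type markers moved with the scaling. As deposited, the medians of 10 neuron markers and 17 astrocyte markers were 0.08 and 0.12, and with gene-row quantiles -0.05 and -0.02. The list of 26 synaptic vesicle genes went from 0.07 to -0.17 with all-row and -0.07 with gene-row quantiles, and 4 of the 26 changes were positive in the last. Myelin markers were the lowest of the brain cell lists with gene-row quantiles, at -0.21, against -0.08 as deposited. Without flaxseed replicate 1 the median was 0.03 as deposited and -0.15 with all-row quantiles. Olig2, a transcription factor of the oligodendrocyte lineage, read 9.14, 9.08, 8.85 and 9.01 against 8.81, 8.82, 8.92 and 8.74. These groups overlapped as deposited, did not with either quantile normalization, and the difference was -0.20, -0.29 and -0.30 in turn. The 17 microglia and macrophage markers went both ways, with 9 positive changes and a median of 0.04, and 6 positive and a median of -0.02 without flaxseed replicate 1. Among them P2ry12, a purinergic receptor, read 8.04 to 8.46 against 8.49 to 8.65, and Tmem119, a membrane protein of microglia, differed by -0.12. Dio2, the tanycyte deiodinase that activates thyroid hormone, read 6.77 to 7.18 against 7.19 to 7.66, a narrow gap at a dim signal. Its list of 23 markers went both ways, with 15 positive changes, and 10 without flaxseed replicate 1. On that list Aqp1 differed by -0.14 and Rax by -0.08.

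**Figure D5:**
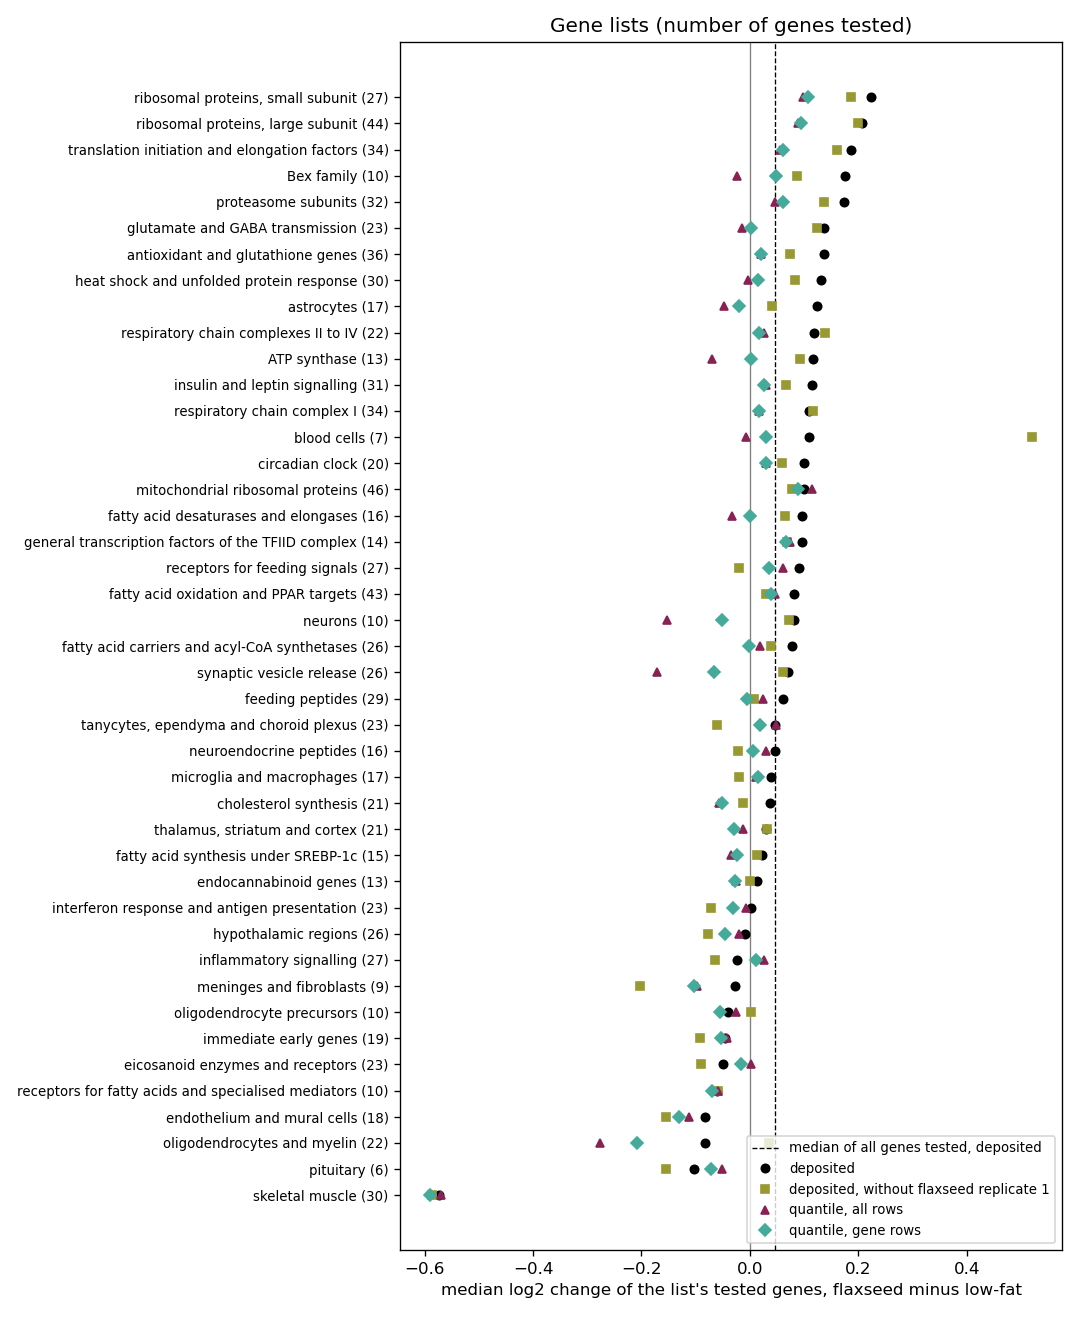
Median log2 change (flaxseed minus low-fat, horizontal axis) of the tested genes of each of 43 lists (vertical axis, number of genes in parentheses), as deposited, without flaxseed replicate 1 and after quantile normalization over all rows or over gene rows. Of the 43 medians 32 are positive as deposited, 28 without flaxseed replicate 1, 20 with all-row and 23 with gene-row quantiles.

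Across the 43 lists, 16 medians turned sign with all-row quantiles, 11 with gene-row quantiles and 8 without flaxseed replicate 1. The safflower diet was compared with the same low-fat arrays, so the 2 comparisons share their controls. Beside low-fat, the median change of the large-subunit ribosomal list was 0.14 with safflower, that of proteasome genes 0.22 and that of muscle genes -0.64. The muscle value again includes low-fat replicate 3. Other lists had opposite signs with the 2 diets. Safflower gave 0.30 for myelin and 0.23 for endothelial markers, where flaxseed gave -0.08 for both. It gave -0.13 for feeding peptides and -0.37 for blood cell genes, where flaxseed gave 0.06 and 0.11. No gene differed between the flaxseed and safflower arrays at an adjusted p under 0.05 in limma, with 0 calls.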

How the data were processed

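Per the labels' protocols, biotinylated cRNA was made from 100 ng of total RNA of micro-dissected hypothalamus and hybridised to Affymetrix arrays. The deposited log2 signals of 13 arrays were made by the authors with RMA, per the submitters' processing notes, which name Affymetrix Expression Console and Transcriptome Analysis Console. The table holds 70580 rows, of which 1738 are control features, 505 name several genes and 44891 none. Of the single-symbol rows 22077 matched RefSeq (GRCr8), and 1182 genes had several rows, of which the brightest was used. No batch or scan date is given in the sources used here, and the number of arrays limits the precision.

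Group means were fitted over all 13 arrays with limma 3.58.1 in R 4.3.3 (lmFit, eBayes), as flaxseed minus low-fat, with Benjamini-Hochberg adjustment over 16006 genes. Array summaries were tested with exact permutations (scipy 1.17.1). Lists are described by counts and medians. The fit was tested on simulated data.

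The members and the 43 gene lists were chosen with earlier results of these data known. Named were the 10 genes of smallest p in each direction among those without overlap as deposited and after all-row quantile normalization (uncharacterised, olfactory Olr and copy-like symbols left out), the 2 genes of smallest p of each list, and a set of feeding and lipid genes. Quantile normalization over the gene rows was added after the values had been seen. Other settings were loess, median centring, filters, variance models, array weights, a replicate block and leaving out each array. Arrays of the same replicate number were not treated as pairs in the main fit. The correlations of same-numbered deviations were 0.43, -0.15, -0.10 and 0.35, and so few values cannot settle whether such arrays belong together.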

Additional observations from a re-analysis of the deposited data

Results flagged for a closer look

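Of 236 sets of 4 arrays examined (named genes and array summaries in each diet), 14 held an array with a gap to its neighbours larger than Dixon's 95% limit, which is 5.93%, and chance gives about 1 in 20. Flaxseed replicate 1 accounted for 5 of them and low-fat replicate 3 for 3. On flaxseed replicate 1, Ddx20 read 7.62 (7.45 to 7.47 on the other flaxseed arrays), Bex4 9.05 (8.46 to 8.55), Slc1a3, the astrocyte glutamate transporter GLAST, 11.34 (11.10 to 11.11), Mag, the myelin-associated glycoprotein, 9.27 (9.67 to 9.75) and Scd 9.06 (8.84 to 8.88).

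On low-fat replicate 3, Agrp read 7.09 (7.23 to 7.26 on the other low-fat arrays), Scd 8.72 (8.88 to 8.89) and Ppara 6.98 (7.27 to 7.32). Cnr1, the cannabinoid receptor, read 8.60 on low-fat replicate 1 (8.81 to 8.84). Gnrh1, gonadotropin-releasing hormone, read 7.26 on low-fat replicate 2 (7.42 to 7.43), and Elavl4, a neuronal RNA-binding protein, 8.86 on the same array (8.72 to 8.74). Prp2 read 7.79 on flaxseed replicate 3 (7.54 to 7.58). Over all rows, the median signal was 6.74 on low-fat replicate 1 (6.67 to 6.68), and the median of olfactory receptor rows was 4.90 on flaxseed replicate 3 (4.79 to 4.81).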

How the results depend on the processing

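The count of 0 genes at an adjusted p under 0.05 in limma stood under every setting run except array weights, which gave 4720 (2505 higher, 2215 lower), and no filter on dim genes, which gave 1 (LOC102551431, lower). The array weights were 0.24 for low-fat replicate 3 and 0.38 for flaxseed replicate 1 against 3.80 for flaxseed replicate 2. With a 1.5-fold limit and an unadjusted p, 9 genes were left. The count of 3222 at an unadjusted p under 0.05 became 2029 with all-row quantiles, 2069 with loess, 1799 with the stricter filter, 1322 with the 8 arrays and their own quantiles, 6804 with array weights, 1582 with quantiles without flaxseed replicate 1, and 1666 (without low-fat replicate 1) to 4184 (without low-fat replicate 3, 1918 higher and 2266 lower) when an array was left out, with 2005 without flaxseed replicate 2. The count of 1334 genes without overlap became 882 with all-row quantiles, 2779 with median centring and 1510 to 2794 when an array was left out (2735 without low-fat replicate 3, 2691 without low-fat replicate 4, 2794 without flaxseed replicate 3). With the replicate block 2656 genes had an unadjusted p under 0.05 and 0 an adjusted one.

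Of the 114 named genes 83 kept their sign under all settings run. Log2 changes turned sign with all-row quantiles for Rpl4 -0.038, Eif3h -0.058, Cox6c -0.037, Atp5pb -0.097, Ntrk2 -0.087, Hacd3 -0.067, Sc5d -0.034, Syp -0.082, Syt4 -0.079, Map2 -0.14, Slc1a3 -0.049, Slc1a2 -0.093, Hbb-b1 -0.0078, Pmch -0.20, Fads1 -0.14, Fads2 -0.056, Elovl5 -0.17, Scd -0.0070 and Ppara 0.046. With the 8 arrays and their own quantiles they turned for Rpl4 -0.042, Eif3h -0.060, Cox6c -0.031, Atp5pb -0.10, Ntrk2 -0.093, Hacd3 -0.061, Sc5d -0.036, Gabra2 -0.0010, Syp -0.079, Syt4 -0.084, Map2 -0.14, Slc1a3 -0.048, Slc1a2 -0.093, Hbb-b1 -0.027, Pmch -0.20, Fads1 -0.14, Fads2 -0.061, Elovl5 -0.17, Scd -0.0070 and Ppara 0.045. With quantiles and without flaxseed replicate 1 they turned for Rpl4 -0.25, Rpl8 -0.12, Rps7 -0.14, Eif3h -0.23, Cox6c -0.20, Atp5pb -0.28, Ntrk2 -0.29, Hacd3 -0.29, Sc5d -0.088, Msmo1 -0.0020, B2m -0.15, Hspe1 -0.045, Hsph1 -0.053, Psmc2 -0.00050, Gabra2 -0.26, Syp -0.27, Syt4 -0.31, Map2 -0.33, Slc1a3 -0.29, Slc1a2 -0.22, Dcn -0.045, Cartpt -0.20, Pmch -0.25, Fads1 -0.39, Fads2 -0.26, Elovl5 -0.41, Scd -0.050, Ppara 0.0074 and Cpt1a -0.037. Loess turned Eif3h -0.0062, Cox6c -0.0095, Atp5pb -0.048, Ntrk2 -0.054, Hacd3 -0.023, Sc5d -0.014, Syp -0.088, Syt4 -0.023, Map2 -0.081, Slc1a2 -0.14, Hbb-b1 -0.11, Pmch -0.23, Fads1 -0.065, Fads2 -0.050, Elovl5 -0.13 and Ppara 0.052. Array weights turned Agrp -0.051, Fads1 -0.046, Fads2 -0.095 and Cpt1a -0.018, median centring Ppara 0.076 and gene-row quantiles, added after the values had been seen, Pmch -0.085, Elovl5 -0.060, Scd -0.020 and Ppara 0.017. Leaving out an array gave -0.19 to 0.63 for Hbb-b1, -0.035 to 0.13 for Agrp, -0.071 to 0.25 for Pmch, -0.10 to 0.0095 for Ppara and -0.00056 to 0.16 for Cpt1a. Of 516 list medians under other settings 44 moved by over 1 SD. The 2373 bright rows without a symbol enter the all-row quantiles and are left out of the gene-row quantiles. The causes of these moves were not tested. Signal near background limits the dimmest genes tested.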
